A study of Arabidopsis thaliana with 4 samples.

Results

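EFR, BIK1, B120 and AT1G51820 are 4 Arabidopsis thaliana genes for receptor kinases or for a kinase that acts beside receptors. Each has 1 probe set, among 22746 probe sets tested and 13286 genes that have a probe set of their own. The 4 genes were chosen by their measured difference between the dexamethasone and untreated arrays compared here, so their differences describe these arrays and carry no test. All plants were Ws-0 seedlings aged 8 days that carry 35S:LEC1-GR, a fusion of the embryo regulator LEC1 to the glucocorticoid receptor domain under the 35S promoter, which drives expression in most tissues. The dexamethasone group (2 arrays) was bathed for 1 h in medium holding 30 µM of the steroid, the untreated group (2 arrays) in the same medium lacking it, and the shoot apices were then cut out. The design text calls the 2 samples of a treatment biological replicates, and no source used here states how many plants went into each. Dexamethasone releases the fusion protein into the nucleus, and both groups carry the transgene, so an effect of dexamethasone itself cannot be told apart from that of LEC1-GR.

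Plants sense microbes at the cell surface through receptors with an outer domain that binds a microbial molecule and, in many cases, an inner kinase domain. EFR is a leucine-rich repeat (LRR) receptor kinase that recognises a peptide of the bacterial elongation factor EF-Tu. BIK1 is a cytoplasmic kinase that associates with EFR and its relatives, is phosphorylated on activation and passes the signal to the enzyme that makes reactive oxygen. B120 belongs to the receptor kinases with an S-domain lectin-like outer part, and AT1G51820 to the LRR receptor kinases of subfamily I, most of which have no assigned ligand. Transcripts of many such receptors are known to accumulate within an hour of exposure to microbial molecules.

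The authors deposited log2 values made with RMA, a method that puts all arrays on a common distribution, and such signals carry no read depth. A control level was taken in each array as the highest value among 27 probe sets for Bacillus transcripts. It was 4.74 and 4.79 in the dexamethasone arrays and 4.68 and 4.86 in the untreated arrays. Across all probe sets the dexamethasone arrays correlated at 0.992, the untreated arrays at 0.983 and arrays of different groups at 0.969 to 0.979. LEC1 was not analysed here, so the induced gene itself was not checked. Of 12 shoot apex markers 2 were measured. The stem cell gene CLV3 stood at 4.66 and 4.54 with dexamethasone, against 4.42 and 5.02 without it, and was above the control level in 1 array. YAB3, which sets leaf polarity, stood at 7.81 and 7.66 with dexamethasone, against 7.79 and 7.82 without it. Of 11 mesophyll markers 1 was measured, LHCB4.1 of the light-harvesting antenna, at 13.28 and 13.41 with dexamethasone and 13.28 and 13.35 without it. Of 10 root markers 5 were measured. Their summed linear signal was 3888 and 4420 with dexamethasone, against 3264 and 5837 without it, highest in untreated replicate 2. PYK10, by far the brightest (11.82 and 12.01 with dexamethasone, 11.57 and 12.28 without it), dominates that sum. The differences of the 5 were all below 0, from -0.86 for EXPA7 to -0.0063 for PYK10, with a median of -0.57. All 5 were highest in untreated replicate 2, so these differences rest largely on that array. Without it the difference was 0.23 for EXPA18 and 0.51 for AT5G17820, while that of EXPA7 stayed below 0 (-0.25). None of these 8 marker genes passed limma's test, and none had an unadjusted p below 0.05.

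EFR, the receptor for EF-Tu, stood at 6.93 and 6.92 in the dexamethasone arrays, against 5.77 and 5.50 in the untreated arrays. Both dexamethasone values lay above both untreated values, as in 22.3% of all probe sets, with a gap of 1.15 between the closest arrays. The means were 6.92 ± 0.00615 with dexamethasone and 5.64 ± 0.19 without it (SD, n = 2 each), a log2 difference of 1.29 ± 0.15 (limma standard error), or 2.44-fold. All 4 values lay above the control level of their arrays. In bulk tissue, more cells that express a gene and more transcript per cell cannot be told apart.

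B120, the S-domain receptor kinase, stood at 7.40 and 6.82 with dexamethasone, against 5.24 and 4.65 without it. The groups did not overlap, with dexamethasone higher, as in 22.3% of all probe sets, and the gap between the closest arrays was 1.58. The difference was 2.17 ± 0.28, from means of 7.11 ± 0.41 with dexamethasone and 4.94 ± 0.42 without it (SD, n = 2 each). Untreated replicate 2 lay below its control level, and with that array set to the control level the fold was at least 4.17. Within each group replicate 1 was the higher array, by 0.57 with dexamethasone and by 0.59 without it, so the differences between arrays of the same replicate number were 2.16 and 2.18. These replicate gaps were larger than those of 95.3% of all probe sets in the dexamethasone group and 91.2% in the untreated group.

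AT1G51820, the LRR receptor kinase of subfamily I, stood at 6.94 and 7.04 with dexamethasone, against 3.68 and 4.45 without it. Both untreated arrays lay below their control level and both dexamethasone arrays lay above it, with a gap of 2.50 between the closest arrays of the 2 groups. The difference was 2.93 ± 0.27, from means of 6.99 ± 0.066 with dexamethasone and 4.06 ± 0.54 without it (SD, n = 2 each). With the untreated arrays set to the control level the difference was 2.22, at least 4.65-fold.

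BIK1, the cytoplasmic kinase, stood at 9.81 and 9.77 with dexamethasone, against 8.87 and 8.85 without it. The replicates of both groups lay closer together than those of most probe sets, 0.040 apart with dexamethasone and 0.019 apart without it. The means were 9.79 ± 0.028 with dexamethasone and 8.86 ± 0.013 without it (SD, n = 2 each), a difference of 0.93 ± 0.12, or 1.91-fold. This was the smallest difference of the 4 genes. It lay between 0.91 and 0.95 when any 1 array was left out, and that of EFR between 1.15 and 1.42.

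**Figure D1:**
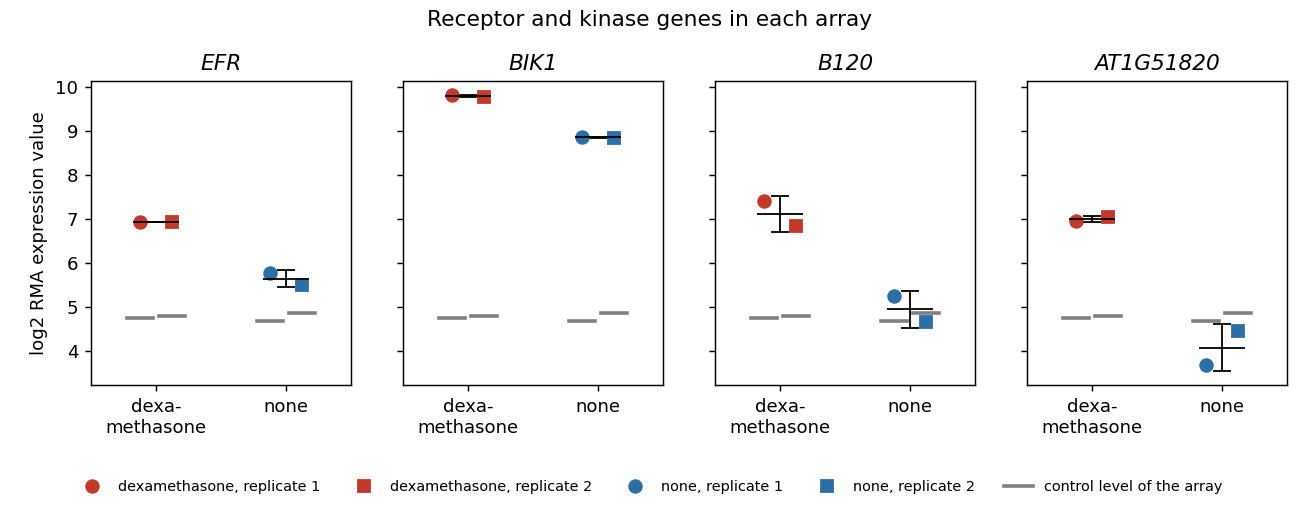
Log2 RMA expression value of EFR, BIK1, B120 and AT1G51820 in each array, with dexamethasone on the left of each panel and untreated on the right. Circles are replicate 1, squares replicate 2, black bars the mean and SD of 2 arrays, and grey bars the control level of each array. The groups do not overlap in any of the 4 genes, which were chosen by their difference in these arrays. In 22.3% of all probe sets both dexamethasone arrays likewise lie above both untreated arrays. The untreated values of AT1G51820 (3.68 and 4.45) lie below the control level.

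Profiles over the 4 arrays, each centred on its own mean but not scaled, were compared between the 4 genes. The root mean square distance on the log2 scale was smallest for EFR and BIK1 (0.20) and was 1.04 for BIK1 and AT1G51820. Such distances take in the size of the difference, by which the genes were chosen, as well as how the replicates lay. The 3 genes with profiles nearest to EFR were SRC2, a gene of cold response (12.61 and 12.60 with dexamethasone, 11.41 and 11.17 without it, distance 0.018), AT1G63750 (0.059) and AT5G65470 (0.060). Nearest to BIK1 were AT2G27580 (0.025), PTI1-4, which encodes another cytoplasmic kinase (0.041), and AT5G45430 (0.047). PTI1-4 stood at 10.52 and 10.57 with dexamethasone, against 9.67 and 9.59 without it. B120 had AT5G16200 (0.086), AT1G56060 (0.090) and AT4G10270 (0.12) as its nearest. Each also had replicate 1 above replicate 2 in both groups, which the choice by nearest profile favours. The nearest 3 to AT1G51820, AT4G34150, AT4G22470 and AT3G44450, lay 0.44 to 0.46 away. The distances of AT1G51820 rest on untreated values of 3.68 and 4.45, both below the control level, and that of B120 on 1 such value, so they do not rank the genes by likeness. These are likenesses over 4 arrays and carry no test.

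The other genes of the 4 families mostly did not pass the test. The families were assembled by locus from general knowledge of Arabidopsis kinases, and of 125 genes besides the 4 members 88 had a probe set of their own. In limma with Benjamini-Hochberg adjustment over all probe sets 3 of the 88 rose and 0 fell, or 3.41% higher, where 1.49% of all 22746 probe sets were called higher and 0.879% lower. At an unadjusted p below 0.05, 12 of the 88 (13.6%) were higher and 1 (1.14%) lower. Over all probe sets 8.79% were higher and 8.37% lower at that p. The 13 together are no larger a share than over all probe sets. Their split by direction was less even than that of all probe sets, and this was not tested. The median difference of the 88 was 0.03, against -0.017 over all probe sets. In 23 of the 88 both dexamethasone arrays lay above both untreated arrays, as they did in 22.3% of all probe sets. Averaged over the arrays, 46 of the 88 lay at or below the mean control level, and none of these was called. Among the 42 above it the 3 called genes make 7.14%, where 1.8% of the 9010 genes above that level were called higher, and the median difference was 0.14, against -0.045 for those 9010 genes. All calls were lost when either dexamethasone array was left out, so that loss is not particular to any gene. Such a fit takes its spread from the untreated pair alone. Replicate differences over all probe sets had an SD of 0.406 in that pair, against 0.279 in the dexamethasone pair. Of the 88, limma called 1 higher and 0 lower when untreated replicate 2 was left out, and 4 higher and 1 lower when untreated replicate 1 was.

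**Figure D2:**
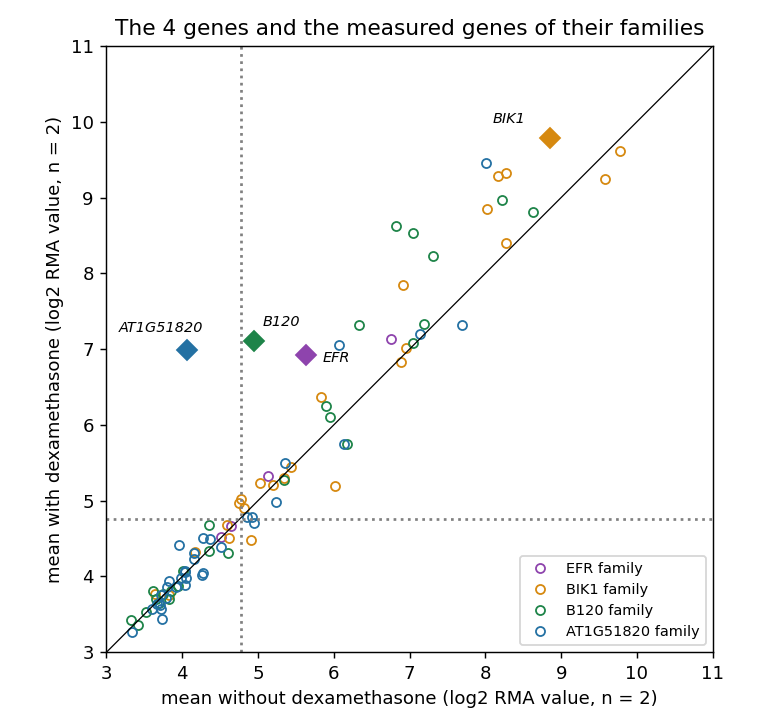
Mean log2 RMA value with dexamethasone against the mean without it (2 arrays each) for the 4 genes, drawn as diamonds, and for the 88 measured genes of their families, drawn as circles. Dotted lines mark the mean control level of each group and the solid line marks equal values. AT1G51820 is the gene that stands below the control level without dexamethasone and at 6.99 with it, and most dim family members lie on the line.

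In the EFR family, LRR subfamily XII, 4 of the 7 other genes were measured and 0 passed limma's test, with 0 at an unadjusted p below 0.05. AT3G47570 had the largest difference, at 7.20 and 7.06 with dexamethasone and 6.97 and 6.54 without it (0.38 ± 0.18, limma adjusted p = 0.40). AT3G47110 stood at 5.40 and 5.26 with dexamethasone and 5.10 and 5.17 without it (0.19 ± 0.13, limma adjusted p = 0.548). The other 2 genes lay below the mean control level, with a family median of 0.11. FLS2, the flagellin receptor of this subfamily, was not analysed here.

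In the BIK1 family, receptor-like cytoplasmic kinases of group VII, 24 of the 38 other genes were measured, 2 rose and 0 fell, with a median of 0.09. That is 8.33% higher, where 1.49% of all probe sets were called higher and 0.879% lower. AT1G76360 stood at 9.38 and 9.18 with dexamethasone, against 8.23 and 8.09 without it, a rise of 1.12 ± 0.14 (limma adjusted p = 0.0372). AT1G07870 stood at 7.79 and 7.91 with dexamethasone, against 6.85 and 6.98 without it, a rise of 0.94 ± 0.13 (limma adjusted p = 0.0436), close to that of BIK1. With any 1 array left out the difference of AT1G07870 ran from 0.87 to 1.00 and that of AT1G76360 from 1.02 to 1.22. AT1G07870 lost its call in every one of those fits, and AT1G76360 kept its call only without untreated replicate 1. APK1A, a related protein kinase gene, had 9.62 and 9.04 with dexamethasone and 8.88 and 7.66 without it, a difference of 1.06 ± 0.44 that did not pass (limma adjusted p = 0.317). With 1 array left out the difference of APK1A ran from 0.45 to 1.67 and the limma adjusted p from 0.0361 to 0.73, past the test only without untreated replicate 1. AT1G61590 had the lowest difference, -0.82 ± 0.25, with 5.03 and 5.37 with dexamethasone and 5.70 and 6.34 without it (limma adjusted p = 0.195). With 1 array left out it ran from -1.14 to -0.50 and the limma adjusted p from 0.0465 to 0.587, past the test only without untreated replicate 1. APK1A and AT1G61590 were chosen after their values were seen.

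In the B120 family, the S-domain lectin receptor kinases, 26 of the 36 other genes were measured, 1 rose and 0 fell, with a median of 0.06. That is 3.85% higher, where 1.49% of all probe sets were called higher and 0.879% lower. The gene that rose was SD1-29, known as the receptor for bacterial medium-chain 3-hydroxy fatty acids. SD1-29 stood at 8.77 and 8.47 with dexamethasone, against 7.04 and 6.59 without it, a rise of 1.81 ± 0.21 (3.50-fold, limma adjusted p = 0.0342). AT1G11330 stood at 7.49 and 7.15 with dexamethasone and 6.40 and 6.26 without it (0.99 ± 0.16, limma adjusted p = 0.0584). With each array centred on its median AT1G11330 passed (limma adjusted p = 0.0487). With any 1 array left out the difference of SD1-29 ran from 1.58 to 2.03. Its call was lost, as were all calls, when either dexamethasone array was left out. ARK3, the gene next to B120 on the chromosome, was not analysed here.

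SD1-29 lies in a run of S-domain genes on the same stretch of the chromosome, of which 14 were listed and 14 measured. AT1G61360 and AT1G61370, listed just before it, had differences of 1.48 ± 0.33 and 0.93 ± 0.24, and neither passed (limma adjusted p = 0.106 and 0.135). AT1G61360 stood at 9.02 and 8.04 with dexamethasone, against 6.97 and 7.13 without it. AT1G61370 stood at 8.48 and 7.99 with dexamethasone, against 7.09 and 7.52 without it. In both genes the groups did not overlap, with dexamethasone higher, as in 22.3% of all probe sets. In 9 of the 14 genes no array exceeded its control level. Among these was AT1G61390, listed just after SD1-29, at 3.75 and 3.66 with dexamethasone and 3.68 and 3.62 without it (0.05 ± 0.12).

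In the AT1G51820 family, LRR subfamily I, 34 of the 44 other genes were measured and 0 passed limma's test, with 3 (8.82%) at an unadjusted p below 0.05, all higher, close to the 8.79% of all probe sets. One of them, AT3G46370, lay below the control level in all arrays. The median was -0.05, and 24 of the 34 lay at or below the mean control level. AT1G51820 stands in a run of 13 listed genes, of which 10 were measured. AT1G51805, in the same run, stood at 9.34 and 9.57 with dexamethasone, against 8.55 and 7.48 without it (1.44 ± 0.36, limma adjusted p = 0.129). Without untreated replicate 1 the difference of AT1G51805 was 1.98 (limma adjusted p = 0.0147), and without untreated replicate 2 it was 0.91 (0.0831). AT1G51790 stood at 7.31 and 6.80 with dexamethasone, against 5.84 and 6.31 without it (0.98 ± 0.25, limma adjusted p = 0.133).

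Of the 9 other measured genes of the run, 3 had a difference above 0, AT1G51790, AT1G51805 and AT1G51850 (0.14), and 6 one below 0, and none of the 9 passed limma's test. AT1G51840, AT1G51890 and AT1G51910 lay below the control level in all arrays, with differences of -0.24, -0.12 and -0.24. AT1G51810, just before it, lay at 3.69 and 3.73 with dexamethasone and 3.96 and 3.63 without it, at or below the control level throughout. AT1G51830 stood at 5.17 and 6.32 with dexamethasone, against 4.96 and 7.32 without it. AT1G51850 and AT1G51860 were likewise higher in untreated replicate 2 (5.87 and 5.79) than in untreated replicate 1 (4.83 and 4.70). The root peroxidase-type marker AT5G17820, chosen after its values were seen, was also higher in untreated replicate 2. It stood at 6.81 and 7.33 with dexamethasone and 6.56 and 9.12 without it. In the dexamethasone arrays AT1G51850 went the other way (5.67 and 5.32). The part of root tissue in these values was not tested. AT1G51820 itself was higher in untreated replicate 2 as well (4.45 against 3.68), both below the control level. Related genes of a run can share probe matches, and hybridisation to a relative was not tested.

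**Figure D3:**
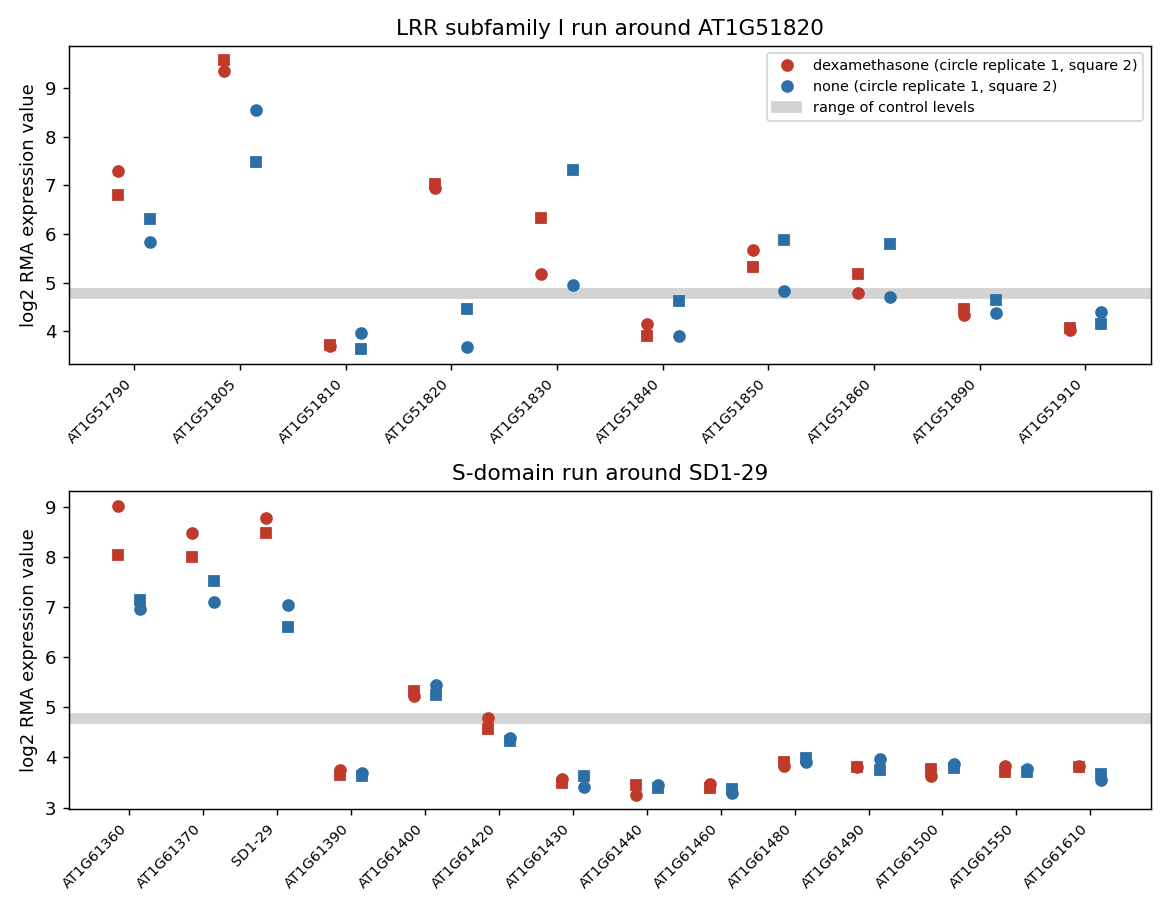
Log2 RMA value in each array for the measured genes of the run around AT1G51820 (top) and the run around SD1-29 (bottom), in the order of their loci, with dexamethasone in red on the left of each gene and untreated in blue on the right. Circles are replicate 1, squares replicate 2, and the grey band spans the control levels, 4.68 to 4.86. AT1G51820 stands at 6.94 and 7.04 with dexamethasone beside the dim AT1G51810. SD1-29, AT1G61360 and AT1G61370 stand apart from 9 genes that lie below the band, AT1G61390 next to SD1-29 among them.

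The measured chromosome neighbours of EFR, BIK1 and B120 did not pass limma's test. Among the 3 protein-coding genes on each side, 3 of 6 were measured for EFR, with differences from -0.31 to -0.060, and 6 of 6 for BIK1, from -0.49 to 0.82. The highest of these was AT2G39650, next to BIK1, at 8.98 and 8.19 with dexamethasone and 7.73 and 7.80 without it (0.82 ± 0.28, limma adjusted p = 0.225). For B120 only B160 was measured, at 6.38 and 6.58 with dexamethasone and 7.20 and 6.84 without it (-0.54 ± 0.18, limma adjusted p = 0.209).

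Among the other pattern receptors and co-receptors, 5 of 28 were measured, 2 rose and 0 fell, with a median of 0.99, where 1.49% of all probe sets were called higher. SD1-29 and AT1G11330 are counted in this list too. The other gene that rose was AT4G08850, at 10.54 and 10.34 with dexamethasone, against 9.11 and 8.75 without it (1.51 ± 0.18, limma adjusted p = 0.0342). With any 1 array left out the difference of AT4G08850 ran from 1.33 to 1.69. Its call was lost, as were all calls, when either dexamethasone array was left out. FER, a receptor kinase of growth and immunity, stood at 10.50 and 10.19 with dexamethasone and 9.94 and 10.18 without it. AT1G27190, the fifth measured gene, stood at 8.47 and 8.52 with dexamethasone and 8.69 and 8.83 without it, with both dexamethasone arrays lower (-0.27 ± 0.13, limma adjusted p = 0.387). BAK1, the co-receptor of EFR, and CERK1, the chitin co-receptor, were not analysed here.

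Genes downstream of the receptors were named by few probe sets, as 3 of 33 were measured. Of these 1 rose, where 1.49% of all probe sets were called higher. It was AT1G11960, at 9.51 and 9.73 with dexamethasone and 7.83 and 7.70 without it (1.86 ± 0.14, limma adjusted p = 0.0228). The ubiquitin ligase genes PUB25 and PUB26, whose products act on BIK1, had differences of -0.24 and -0.28. The list's median was -0.24, since the other 2 measured genes lay on the other side of the gene that rose. PBL1, the closest relative of BIK1, and RBOHD, the oxidase that BIK1 phosphorylates, were not analysed here. Of 18 early marker genes of pattern-triggered responses 2 were measured and 1 was called higher, as were 1.49% of all probe sets. The immune transcription factor WRKY22 stood at 9.96 and 9.51 with dexamethasone, against 7.50 and 7.06 without it, and passed (2.46 ± 0.23, limma adjusted p = 0.0286). WRKY53 did not pass, at 8.76 and 8.49 with dexamethasone and 8.25 and 7.82 without it (0.59 ± 0.20, limma adjusted p = 0.228). With any 1 array left out the difference of AT1G11960 ran from 1.74 to 1.97 and that of WRKY22 from 2.23 to 2.68. Both calls were lost, as were all calls, when either dexamethasone array was left out.

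Of 27 genes of salicylate and effector-triggered immunity 2 were measured, and 0 passed limma's test, with both higher at an unadjusted p below 0.05, as were 8.79% of all probe sets. SAG101, a partner of the immune regulator EDS1, stood at 9.03 and 8.61 with dexamethasone, against 7.84 and 7.46 without it (1.17 ± 0.21, limma adjusted p = 0.0704). SAG101 passed only without untreated replicate 1 when 1 array was left out (limma adjusted p 0.0379 to 0.313). AT4G26120 stood at 5.97 and 5.22 with dexamethasone, against 4.63 and 4.73 without it, the untreated arrays at or below the control level. Of 13 touch and wound genes 2 were measured, WRKY53 and the zinc finger gene STZ, and 0 passed. Only 1, WRKY53, was higher at an unadjusted p below 0.05, as were 8.79% of all probe sets. STZ stood at 11.21 and 10.77 with dexamethasone and 10.90 and 9.10 without it, a difference of 0.99 ± 0.59 that was 0.091 without untreated replicate 2 and 1.89, past the test, without untreated replicate 1. The part of handling in the values of the 4 genes was not tested.

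Receptor kinases of development were set beside them. Of 28 such genes 6 were measured, and 0 passed limma's test, with 0 at an unadjusted p below 0.05 and a median of -0.20. GSO1, a receptor of root barrier and embryo cuticle formation, stood at 5.65 and 5.68 with dexamethasone and 6.04 and 5.92 without it (-0.31 ± 0.13, limma adjusted p = 0.308). No array exceeded its control level for BRL1, a brassinosteroid receptor gene. Of 12 LRR receptor kinases of subfamily VIII-2, a list added later, 4 were measured and 0 passed. At an unadjusted p below 0.05, 1 was higher, as were 8.79% of all probe sets. That gene, AT1G53430, stood at 9.46 and 9.39 with dexamethasone, against 8.72 and 8.69 without it (0.72 ± 0.12, limma adjusted p = 0.0603). The genes AT1G53440 and AT1G07650 of that list had differences of 0.56 ± 0.25 and 0.40 ± 0.21. The difference between the immune and the developmental lists was not tested.

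**Figure D4:**
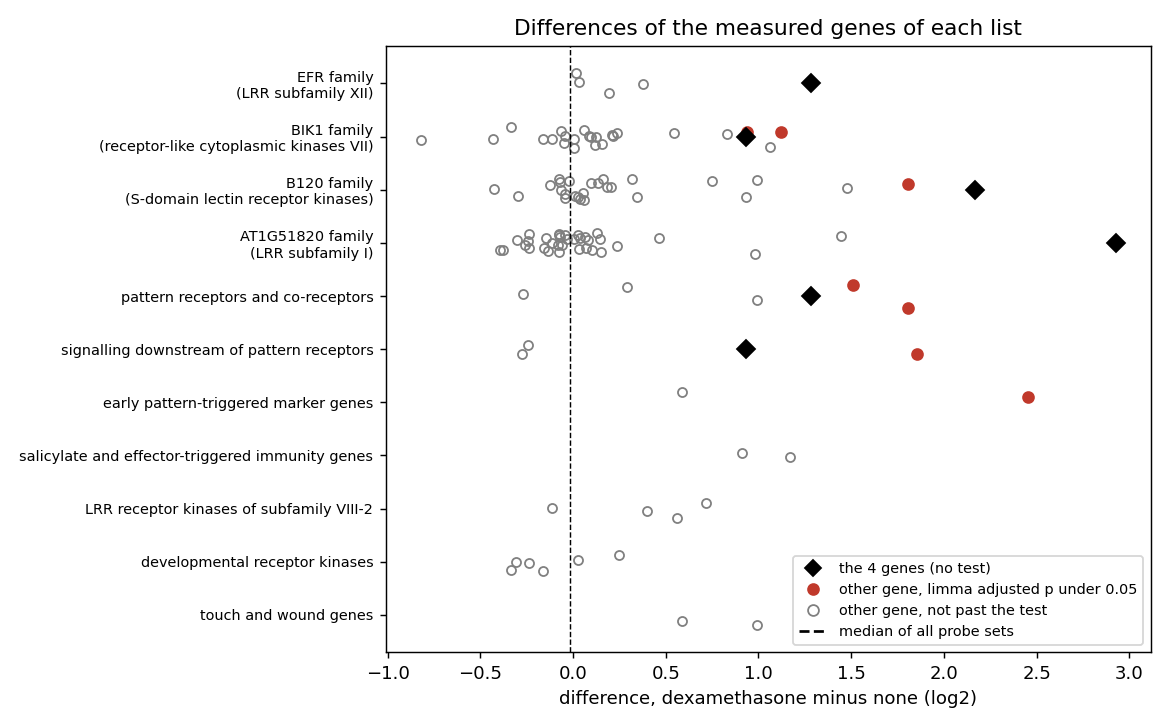
Log2 difference, dexamethasone minus none, for each measured gene of the lists. Black diamonds are the 4 genes, which carry no test, red circles are other genes past limma's test, open circles are genes not past it, and the dashed line is the median of all probe sets (-0.017). Red circles appear in 5 of the rows, and SD1-29 is drawn in 2 of them.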

How the data were processed

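Transcript levels were measured on 4 arrays, and the authors deposited log2 expression values per probe set, made with RMA and the affy package per the submitters' processing notes; no source used here gives versions or filters. RMA sets arrays to a common distribution, so a shift of all transcripts could not be seen. From these values, all but the 64 control probe sets, 22746, were fitted with limma 3.58.1 in R 4.3.3 (lmFit, eBayes, two-sided, Benjamini-Hochberg over all, threshold 0.05). Prior degrees of freedom were 3.09. Probe sets matching 1 gene (13513, of which 13436 were found in the reference gene table) were named through the platform annotation; 503 matched several and 8730 were unnamed here. A gene took its brightest probe set. Groups came from the titles.

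The 4 genes and the lists were chosen with earlier results of these data known: 13 lists were set by locus, and 2 were added later, of which the L-type lectin receptor kinases had 0 of 45 measured. Symbol families (CRK, LECRK, WAK, RLP, PBL) had 0 measured. Named genes are the 4 always, up to 4 called per list by size or the 2 lowest p where none was called, and the 3 nearest profiles. Others were chosen later, among them AT1G11330, AT1G61360, AT1G61370, AT1G61390, AT5G17820, PYK10, FER and the chromosome neighbours. The planned promoter and protein comparisons were not run, as no sequence was used here. On simulated data the fit found 8 of 73 changes of 2-fold (11.0%), 62.1% of those of 4-fold and 82.0% of those of 8-fold. A gene near 2-fold that did not pass may therefore still have changed. The simulation altered only 73, 66 and 61 of 22746 probe sets by these folds, so the shares found need not hold for these arrays. Array number limits the precision.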

Additional observations from a re-analysis of the deposited data

How the results depend on the processing

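The differences of the 4 genes kept their direction in every alternative run for them, and since their groups do not overlap, leaving out 1 array could not have changed it. With dim values set to the control level AT1G51820 had 2.22. Beside the 339 probe sets called higher and 200 lower, the fits that each dropped a single array called between 0 and 734 higher and between 0 and 458 lower. In them the lists had 0 to 4 higher and 0 to 1 lower of the 4 families together, 0 to 2 higher and 0 to 1 lower in the BIK1 family, 0 to 1 higher in the B120, AT1G51820, signalling, early marker, salicylate and touch lists, 0 to 2 higher among pattern receptors and 0 to 3 lower among root markers. These fits take the spread of the group left with 1 array from its counterpart. Without moderation, and at an adjusted p of 0.01, limma called 0 probe sets and 0 genes of any list, with 2580 and 3902 probe sets at an unadjusted p below 0.05. A 2-fold minimum left 1 BIK1 relative, AT1G76360. Only probe sets that match 1 gene, fewer tests, gave 172 and 101. Of the B120 relatives 2, SD1-29 and AT1G11330, were called with each array centred on its median, without the dimmest 50% of probe sets and with the replicate block, which made 4 called genes over the families and 3 among pattern receptors. The block and the dimmest 50% left out also called 1 salicylate gene, SAG101. Without the dimmest 50%, 1 subfamily VIII-2 gene, AT1G53430, was called.

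Adding the replicate block gave 559 probe sets called higher and 300 called lower, and these held 532 of the 539 called without a block. Same-numbered arrays deviated together at a correlation of 0.227, but 2 pairs are too few to show pairing.

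Differences whose sign turned when 1 array was left out were not called with all 4 arrays: CLV3 (-0.42 to 0.18), YAB3 (-0.14 to 0.0035), EXPA18 (-1.37 to 0.23), LHCB4.1 (-0.032 to 0.095, and -0.013 after another quantile normalization), AT5G17820 (-2.05 to 0.51), AT1G51830 (-1.57 to 0.79), AT1G51850 (-0.37 to 0.66) and AT1G51860 (-0.80 to 0.29). The cause was not tested. With 2 arrays per group and no detection call, genes near the control level are poorly measured.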
